A study of Mus musculus with 40 samples.

Results

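The genes described here are 8 components of cytokine signalling through gp130: the ligands Lif and Clcf1, the receptor chains Osmr, Lifr and Il6st, the kinase Jak2, the transcription factor Stat3 and the feedback inhibitor Socs3. They were chosen by name as a listed pathway, with earlier results of these data known. They make up 8 of 55782 gene names usable in both larger count tables. Il6 was left out because its counts disagreed between tables. RNA was sequenced from kidneys of C57bl/6-wt mice. In the temporal table, kidneys were taken 6, 24, 48 and 72 h after ischaemia and reperfusion injury (IRI, clamping and release of the renal blood supply) and compared with Control kidneys, for which the labels name no injury or treatment. The study asked whether human stromal cells prevent this injury, and used the time course to look for a treatment window. In the therapy table, injured mice had received human mesenchymal stromal cells (MSCs) from umbilical cord (UC-MSC) or bone marrow (BM-MSC) immediately after reperfusion, or no cells (AKI, labelled as 6 h after reperfusion), and the same 4 Control libraries were the reference. The sampling time of the MSC groups is not in the labels. A sham table held kidneys 24 h after surgery without ischaemia (sham 24 h) and kidneys without surgery (sham control). The labels give the sham 24 h kidneys the treatment IRI, although their source is named as surgery without it. Each group had 4 libraries. The labels do not state that these were separate animals, so the p-values here speak only of the spread among libraries, part or all of which may be technical.

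Cytokines of the interleukin-6 family share the signalling chain gp130, encoded by Il6st. LIF signals through gp130 paired with LIFR, oncostatin M through gp130 paired with OSMR or, in part, LIFR, and cardiotrophin-like cytokine (CLCF1) through gp130, LIFR and CNTFR. The receptors carry JAK kinases that phosphorylate STAT3, which enters the nucleus and induces genes that include Socs3, whose product binds gp130 and JAKs and damps the signal. In injured kidney this pathway is known for acute-phase and repair responses. RNA level gives no measure of STAT3 phosphorylation.

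Depth, over the names analysed, ranged from 4640921 counts at 72 h to 18475869 counts in an AKI library in the 2 larger tables, and from 26601247 to 37097091 counts in the sham table. Values below are CPM, counts scaled to a common library total, with TMM library sizes of each table, so levels are compared within a table and not between genes, whose lengths were not used. The adjusted p-values come from the quasi-likelihood test of edgeR, adjusted by Benjamini-Hochberg over all genes of a fit, and a gene was called at an adjusted p under 0.05. The 6 markers listed for proximal tubule segments S1 and S2 (Slc34a1, Slc5a2, Slc5a12, Lrp2, Cubn and Slc22a6) were above 0 in all groups. They are the proximal tubule markers meant below, unless S3 is named. Their summed CPM at 6 h was 1753 to 5489, with Control at 8808 to 11222, and by 72 h it was 267 to 377. A separate list of 4 markers of segment S3 summed to 1957 to 2314 CPM in Control and 77.4 to 208 CPM at 6 h. The S3 sum was 59.1 to 80.1 CPM at 24 h and 149 to 273 CPM at 72 h. Library-wide features moved with the groups. Mitochondrial ribosomal RNA took 2.55 to 4.36% of counts at 48 h and 0.947 to 2.40% in AKI, against 0.181 to 0.221% in Control, and the single gene Cep85 took 9.74 to 12.9% at 72 h, against 0.0107 to 0.0135% in Control. A library's median Spearman correlation with its own group was 0.880 to 0.885 at 72 h, against 0.993 in Control. The part of these features in the members' levels was not tested. AKI replicate 1 stood apart from the other 3 AKI libraries (highest Spearman correlation with them 0.903, and 0.926 with a Control library). IRI 6 h replicate 1 was nearer to a UC-MSC library (0.966) than to its own group (0.953), and BM-MSC replicate 4 was nearer to a UC-MSC library (0.978) than to its own (0.967). The pattern of repeated lines showed that Control and 6 h columns had been joined separately from the 24, 48 and 72 h columns, and AKI separately from Control, BM-MSC and UC-MSC. Comparisons across those blocks (24, 48 and 72 h against Control or 6 h, and any comparison with AKI) carry the block with the group, and these cannot be told apart.

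Promoter windows were available for 7 members (8 windows of 250 bases before and 50 after the annotated start, RefSeq, build GRCm38.p6, which differs from the mm39 build of the counts). They are shown for 3 members that rose together after injury and that hold a searched motif: a STAT-type palindrome, TTCNNNGAA, in Socs3 and an AP-1-type motif, TGANTCA, in Lif and Osmr. Each pattern reads the same on both strands, so a single search covers both. The windows of Stat3, which also rose, and of Il6st, Jak2 and Lifr held no match and are not shown. Capitals mark the match. The Socs3 window lies at chr11:117969317-117969616 on the minus strand, the Lif window at chr11:4257318-4257617 on the plus strand and the Osmr window at chr15:6874264-6874563 on the minus strand.
Socs3: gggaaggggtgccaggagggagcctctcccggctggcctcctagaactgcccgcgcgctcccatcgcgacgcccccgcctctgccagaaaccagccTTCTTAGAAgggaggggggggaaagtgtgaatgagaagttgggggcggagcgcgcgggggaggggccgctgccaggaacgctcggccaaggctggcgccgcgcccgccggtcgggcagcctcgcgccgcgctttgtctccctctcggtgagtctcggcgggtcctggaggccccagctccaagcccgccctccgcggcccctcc
Lif: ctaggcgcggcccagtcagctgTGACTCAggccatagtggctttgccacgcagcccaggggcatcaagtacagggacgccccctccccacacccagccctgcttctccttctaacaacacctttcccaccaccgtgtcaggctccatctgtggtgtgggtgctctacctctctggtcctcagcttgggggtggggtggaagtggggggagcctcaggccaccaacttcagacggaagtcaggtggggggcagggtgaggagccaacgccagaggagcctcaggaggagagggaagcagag
Osmr: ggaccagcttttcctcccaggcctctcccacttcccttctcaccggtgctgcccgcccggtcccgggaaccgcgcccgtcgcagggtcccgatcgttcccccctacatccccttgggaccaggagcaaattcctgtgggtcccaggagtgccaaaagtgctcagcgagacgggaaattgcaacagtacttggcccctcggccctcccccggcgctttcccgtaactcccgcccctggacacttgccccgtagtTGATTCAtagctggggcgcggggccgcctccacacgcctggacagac
Counted from the annotated start with no position 0, the Socs3 match TTCTTAGAA began at -154, the Lif match TGACTCA at -228 and the Osmr match TGATTCA at 4. TTCNNNGAA was present in 8.30% of 32851 such windows and in 1 of 7 member genes. TGANTCA was present in 7.81% of windows and in 2 of 7 member genes. The stricter palindrome TTCCNGGAA, all matches of which are also matches of TTCNNNGAA, was present in 1.15% of windows and in 0 of the 8 member windows. A match here describes letters in the window, not a bound site, and its part in any rise was not tested.

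After ischaemia and reperfusion, both ligands, Osmr, Socs3 and, up to 48 h, Stat3 rose, while the receptor chains Lifr and, from 24 h, Il6st fell. At 6 h, 5 of 8 members rose and 1 fell, against 10.4% higher and 8.51% lower of all 16653 genes tested. At 24 h, 5 rose and 3 fell (all genes 21.8% and 20.2%), at 48 h 5 rose and 2 fell (26.9% and 26.8%), and at 72 h 4 rose and 3 fell (26.7% and 29.6%). All 8 members passed the filter on low counts in every table. The 4 times share the Control libraries, so their changes are not independent of one another. In kidney RNA, fewer cells of a type and less RNA per cell cannot be told apart.

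**Figure D1:**
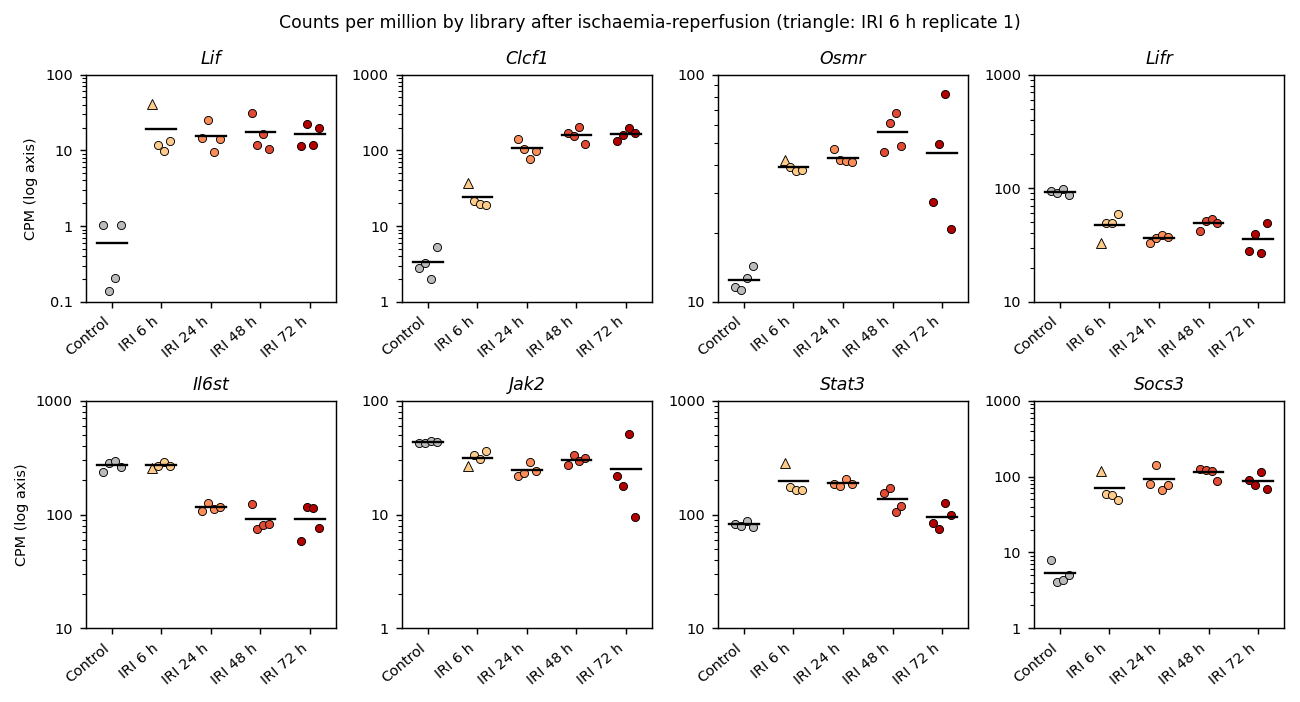
CPM (log axis) of the 8 members in each library of the temporal table, with Control at the left and 4 times after reperfusion to its right. Points are libraries, bars are means of 4, and the triangle is IRI 6 h replicate 1. Lif, Clcf1, Osmr and Socs3 lie above Control at every time, and Lifr below it.

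Lif, the leukaemia inhibitory factor, had 40.5, 11.9, 9.72 and 13.3 CPM at 6 h, against 1.02, 0.141, 0.208 and 1.05 CPM in Control. Every injured library lay above every Control library, and at 6 h replicate 1 was far above the other 3. The log2 fold change was 4.93 ± 0.62 (SE, adjusted p = 4.26e-06), and 4.24 (adjusted p = 8.95e-06) without that replicate. Lif was at 9.42 to 24.8 CPM at 24 h. The 48 h libraries held 10.4 to 30.8 CPM and the 72 h libraries 11.4 to 21.95 CPM. Its fold changes against Control then lay at 4.66, 4.81 and 4.71 (log2). Control held 36 Lif counts in all, which limits the precision of each fold.

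Clcf1, which encodes cardiotrophin-like cytokine, had 37.5, 21.5, 19.7 and 18.8 CPM at 6 h, against 2.80, 3.24, 2.01 and 5.24 CPM in Control. At 24 h it had 143, 105, 77.9 and 98.3 CPM. It was still higher at 48 h, with 168, 153, 200.1 and 121 CPM, and stayed in that range at 72 h, with 132, 159, 194 and 168 CPM. No library of any later time overlapped with 6 h. The log2 fold change against Control was 2.87 ± 0.28 at 6 h (adjusted p = 1.39e-07) and 5.62 ± 0.30 at 72 h (adjusted p = 1.17e-12), a 49.1-fold difference at the last time. The step between 24 h and 6 h was itself called (2.12 ± 0.25, adjusted p = 1.37e-06), and the next, 48 h over 24 h, was 0.60 ± 0.24 (adjusted p = 0.0820).

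Osmr, the oncostatin M receptor chain, had 41.9, 39.0, 37.7 and 37.98 CPM at 6 h, against 11.7, 11.3, 12.7 and 14.3 CPM in Control. All injured libraries were higher than all Control libraries, and the 6 h libraries lay within a narrow band. The log2 fold change was 1.65 ± 0.28 (adjusted p = 1.49e-04). At 48 h it was 2.16 ± 0.28 (adjusted p = 9.84e-07). At 72 h the libraries spread from 20.95 to 81.9 CPM, with replicate 3 highest, and the log2 fold change was 1.85 with it and 1.35 (adjusted p = 3.40e-05) without it.

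Lifr, the LIF receptor chain, moved the other way. It had 32.7, 49.5, 49.2 and 59.4 CPM at 6 h, against 95.1, 91.5, 97.8 and 86.9 CPM in Control. Every injured library was below every Control library. The log2 fold change was -0.96 ± 0.19 (adjusted p = 6.58e-04) at 6 h, -1.36 ± 0.19 (adjusted p = 4.09e-06) at 24 h, -0.92 ± 0.19 at 48 h (adjusted p = 2.84e-04) and -1.37 ± 0.19 at 72 h (adjusted p = 2.53e-06).

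Il6st, which encodes gp130, had 258, 268, 290.1 and 265 CPM at 6 h, against 239, 285, 294 and 263 CPM in Control, and these ranges overlapped (log2 fold change 0.00 ± 0.18). At 24 h it had 107, 126, 111 and 117 CPM. These values lay below every Control and every 6 h library. The log2 fold change at 24 h was -1.23 ± 0.18 against Control (adjusted p = 9.27e-06) and -1.23 ± 0.18 against 6 h (adjusted p = 2.32e-05). At 48 and 72 h it stayed low, at 74.3 to 124 CPM and 58.02 to 116 CPM, with log2 fold changes against Control of -1.58 and -1.57.

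Jak2, a kinase bound to these receptors, had 21.8, 23.2, 28.8 and 24.2 CPM at 24 h, against 42.9, 42.4, 44.3 and 43.6 CPM in Control. The ranges did not overlap, and the log2 fold change of -0.82 ± 0.30 was called (adjusted p = 0.0296). It was -0.45 at 6 h (adjusted p = 0.346), -0.51 at 48 h (adjusted p = 0.151) and -0.79 at 72 h (adjusted p = 0.0291), where replicate 3 alone had 50.7 CPM and the others reached at most 21.9 CPM. Without it the 72 h value was -1.43 (adjusted p = 2.05e-05). The ranges were separate from Control at 6 and 48 h as well, and the fit of only the 2 groups compared called Jak2 at 6 h (-0.35, adjusted p = 0.018), 24 h (-0.78, adjusted p = 5.8e-06) and 48 h (-0.44, adjusted p = 0.0182) but not at 72 h (-0.71, adjusted p = 0.174). The call at 24 h was lost without Control replicate 1, 3 or 4 or IRI 24 h replicate 1, 2 or 4, and that at 72 h without IRI 72 h replicate 1, 2 or 4, at adjusted p-values of 0.051 to 0.069. DESeq2 gave 0.0538 at 72 h.

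Stat3, the transcription factor itself, had 285, 175, 164 and 164 CPM at 6 h, against 83.2, 79.6, 87.2 and 78.2 CPM in Control. It had 184, 177, 207 and 186 CPM at 24 h. These libraries all lay above Control, with replicate 1 at 6 h highest. At 48 h Stat3 had 155, 172, 104 and 118 CPM, and at 72 h 84.7, 74.3, 126 and 98.9 CPM, where it overlapped with Control. The log2 fold changes against Control were 1.26 ± 0.19 (adjusted p = 3.86e-05), 1.20 ± 0.19 (adjusted p = 1.90e-05), 0.74 ± 0.19 (adjusted p = 0.00211) and 0.23 ± 0.19 (adjusted p = 0.322) in order of time. No 72 h library reached the lowest 24 h library, a difference that was not tested, and neither adjacent step was called (48 h over 24 h -0.46, adjusted p = 0.0892, and 72 h over 48 h -0.52, adjusted p = 0.111). Without replicate 3 at 72 h, the last step was -0.67 (adjusted p = 0.0370), and without replicate 2 at 48 h the step before it was -0.59 (adjusted p = 0.0358).

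Socs3, the feedback inhibitor shown above with its STAT-type palindrome, had 118, 59.2, 57.8 and 49.7 CPM at 6 h, against 8.03, 4.01, 4.36 and 5.03 CPM in Control. It remained between 66.2 and 144 CPM at 24 h, 88.2 to 126 CPM at 48 h and 68.5 to 114 CPM at 72 h. No injured library came near the Control range. The log2 fold change was 3.72 ± 0.31 (adjusted p = 1.91e-08) at 6 h and 4.02 ± 0.31 (adjusted p = 3.30e-10) at 72 h, a time at which Stat3 was not called.

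Between successive times, 1 member rose (Clcf1) and 1 fell (Il6st) at 24 h over 6 h, against 14.9% higher and 13.9% lower of all genes. Leaving out replicate 1 at 6 h added Socs3, at 0.72 (adjusted p = 0.0340), and Lifr, at -0.55 (adjusted p = 0.0245). At 48 h over 24 h edgeR called 0 of 8 (9.001% higher and 12.1% lower over all genes), with 3 at an unadjusted p under 0.05 and 2 called by DESeq2. With a single library left out, 1 was called in 4 of the fits, namely Clcf1 (without IRI 24 h replicate 1 or IRI 48 h replicate 4), Il6st (without IRI 48 h replicate 1) or Stat3 (without IRI 48 h replicate 2). At 72 h over 48 h edgeR also called 0 of 8 (2.04% and 3.63% over all genes), with 2 at an unadjusted p under 0.05 and 0 called by DESeq2. Without IRI 72 h replicate 3, Osmr (-0.77, adjusted p = 0.0432), Jak2 (-0.88, adjusted p = 0.0247) and Stat3 were called lower. For these fits with a library left out, the shares of all genes called are not given here.

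IRI 6 h replicate 1, the highest of its group for Lif, Clcf1, Stat3 and Socs3, also stood apart in neutrophil markers. The summed CPM of 5 neutrophil markers (S100a8, S100a9, Csf3r, Cxcr2, Retnlg and Mmp8 were listed, of which 1 was not usable here) was 477 CPM in it, 52.5 to 60.7 CPM in the other 6 h libraries and 2.98 to 5.03 CPM in Control. At the later times the sum was 21.4 to 64.3 CPM. Macrophage and monocyte markers summed to 269 to 493 CPM at 6 h, against 203 to 214 CPM in Control, with replicate 1 the lowest 6 h library. Replicate 1 was also the lowest in proximal tubule markers, at 1753 CPM with 4785 to 5489 CPM in the other 6 h libraries. Of the 4 neutrophil markers tested, 4 rose at 6 h, and Mmp8 was at 0 in the 72 h group. Fibroblast and pericyte markers summed to 782 to 920.1 CPM at 6 h, against 280.1 to 313 CPM in Control, and thick ascending limb markers to 1493 to 2376 CPM at 6 h, against 4605 to 5095 CPM in Control. The part of any of these marker lists in the members' levels was not tested. The 5 rises at 6 h were also called without replicate 1.

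The genes nearest to each member in shape over the 20 temporal libraries were sought among 10161 other genes of mean log2 CPM of at least 3, by the mean absolute difference between profiles centred on their own means. Lifr was nearest to Pkd2 (0.14 log2 units), Csnk1g3 (0.18) and Ctdspl (0.19), where the median over genes was 0.62. Il6st was nearest to Tspyl1 (0.16), Mtmr4 (0.17) and Ptdss2 (0.18), and Stat3 to Msn (0.17), Pgd (0.17) and Trib1 (0.18), which is itself in the list of STAT3 target genes used below. Jak2 was nearest to Capn10, Casp6 and Mapk9 (0.19 to 0.20), and Osmr to Birc3 (0.28), Nasp and Rhbdf2. The steepest members had neighbours at larger distances: Clcf1 Ppm1j (0.40), Fam3d and Spred3, Socs3 S100a6 (0.41), Chrnb1 and Anxa3, and Lif Chil3 (0.53), Adam8 and Timp1. Their medians over genes were larger too, at 2.02 for Clcf1, 1.40 for Socs3 and 1.55 for Lif. Distances of different members are thus not on a common scale. Among the members themselves Lif and Socs3 lay nearest to each other (0.50), as did Lifr and Jak2 (0.36).

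In kidneys with surgery but no ischaemia, Osmr was called higher and no other member passed the test. Of the 8 members, 1 rose at 24 h after sham surgery and 0 fell, against 7.70% higher and 13.1% lower of 17781 genes tested. That member was Osmr, with 8.07, 8.81, 10.2 and 10.03 CPM in sham 24 h kidneys, against 6.89, 3.84, 7.25 and 4.37 CPM in sham control kidneys. The ranges were separate and the log2 fold change was 0.73 ± 0.24 (adjusted p = 0.0374), a call lost without any of 5 of the 8 libraries (sham control C2 or C4, or sham 24 h replicate 2, 3 or 4), at log2 fold changes of 0.58 to 0.75. Proximal tubule markers summed to 2996 to 3895 CPM in sham 24 h kidneys, against 5414 to 7789 CPM in sham control kidneys, and their part was not tested. Socs3 had 1.79, 1.52, 2.62 and 1.43 CPM in sham 24 h kidneys, against 1.22, 1.20, 2.48 and 2.09 CPM in sham control kidneys. Clcf1 had 18.1, 16.8, 11.3 and 12.1 CPM in sham 24 h kidneys, against 9.36, 11.5, 13.1 and 10.3 CPM in sham control kidneys. Both pairs of ranges overlapped. Lif was at 0 to 3.03 CPM after sham surgery and 0.362 to 0.737 CPM in sham control.

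The change at 24 h after ischaemia, less the change at 24 h after sham surgery, was called for all 8 members (5 higher and 3 lower, against 24.8% and 20.1% of 18563 genes). This difference of log2 fold changes was 4.69 ± 0.32 for Clcf1 (adjusted p = 7.35e-11) and 4.11 ± 0.40 for Socs3 (adjusted p = 2.44e-08). For Lif it was 3.95 ± 1.01 (adjusted p = 0.00283). The receptor chains differed in sign, with Osmr at 1.15 ± 0.25 (adjusted p = 5.93e-04), Lifr at -1.50 ± 0.15 (adjusted p = 4.50e-08) and Il6st at -1.18 ± 0.13 (adjusted p = 7.78e-08). Stat3 was at 1.22 ± 0.14 and Jak2 at -0.96 ± 0.16. The median over all genes was 0.12, and each of the 8 calls held when any single library was left out. The tables were counted separately and differ in depth, and what that adds to these differences was not tested. Their reference groups, each on its own scale, differed in mean CPM. Il6st was at 86.2 in sham control and 270 in Control, and Clcf1 at 11.0 and 3.32. The 24 h against Control part also crosses the joined blocks, so block and ischaemia cannot be told apart in it.

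**Figure D2:**
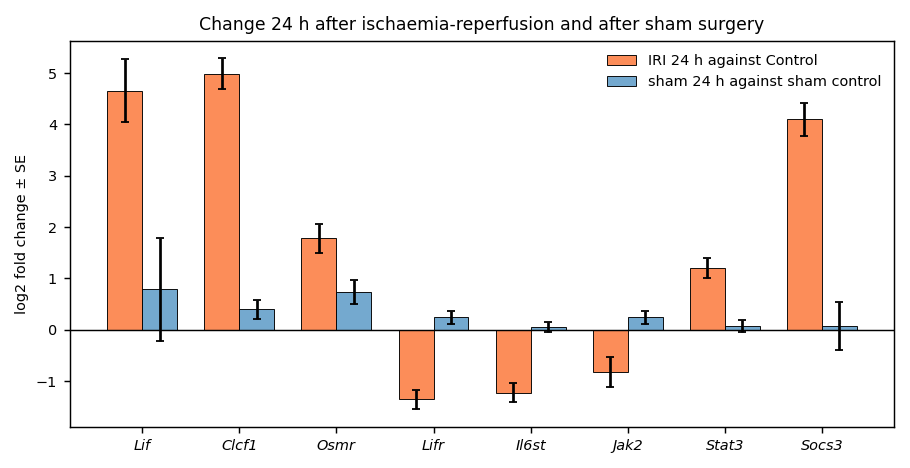
Log2 fold change (bars, with SE) of each member 24 h after ischaemia and reperfusion against Control, beside 24 h after sham surgery against sham control. Lif, Clcf1 and Socs3 have bars above 4 after ischaemia, and each sham bar is below 1.

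In the therapy table, the untreated AKI group also had a rise of ligands, Osmr, Stat3 and Socs3. The reference was the same 4 Control libraries, so this rise is not independent of that in the temporal table. Of the 8 members, 5 rose and 0 fell, against 19.95% higher and 15.1% lower of 16623 genes tested. Socs3 had 64.6, 20.9, 19.7 and 19.5 CPM in AKI kidneys, against 7.48, 3.70, 3.98 and 4.70 CPM in Control kidneys (log2 fold change 2.64 ± 0.44, adjusted p = 3.68e-04). Stat3 had 274, 189.8, 234 and 192 CPM in AKI kidneys, against 77.5, 73.4, 79.6 and 73.1 CPM in Control kidneys (1.55 ± 0.19, adjusted p = 3.81e-05). Lif, Clcf1 and Osmr rose by 4.63, 2.75 and 1.54 (log2). All of these ranges were separate from Control. The sizes depended on AKI replicate 1, the highest AKI library for Lif, Osmr and Socs3, without which Lif was at 3.88 (adjusted p = 1.33e-04), Osmr at 1.08 (adjusted p = 0.00354) and Socs3 at 1.98 (adjusted p = 1.74e-04).

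For Il6st, Lifr and Jak2 the call itself turned on 1 library. Il6st had 298, 120.3, 133 and 107 CPM in AKI kidneys, against 223, 263, 268 and 246 CPM in Control kidneys, and Lifr had 105, 37.6, 39.9 and 37.5 CPM in AKI kidneys, against 88.6, 84.4, 89.2 and 81.2 CPM in Control kidneys. Jak2 had 95.1, 31.1, 30.96 and 26.4 CPM in AKI kidneys, against 39.96, 39.1, 40.4 and 40.7 CPM in Control kidneys. In each case AKI replicate 1 lay above every Control library and the other 3 AKI libraries lay below all of them. With all 4 libraries, none of the 3 genes was called (Il6st -0.60, adjusted p = 0.0746, Lifr -0.64, adjusted p = 0.0717, and Jak2 0.19, adjusted p = 0.665). DESeq2 called Il6st (-0.63, adjusted p = 0.0464) and Lifr (-0.67, adjusted p = 0.0493) with all 4. Without replicate 1 all 8 members were called, with Il6st at -1.08 (adjusted p = 1.46e-05), Lifr at -1.19 (adjusted p = 2.65e-06) and Jak2 at -0.47 (adjusted p = 0.0217). The share of all genes called in that fit is not given here. The AKI libraries and the IRI 6 h libraries carry the same labelled time, yet AKI replicates 2 to 4 had 107 to 133 CPM of Il6st on the scale of the therapy table, where the 6 h libraries had 258 to 290.1 CPM on that of the temporal table. These tables were scaled separately, with Control at 223 to 268 and 239 to 294 CPM in them.

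Of the 4 groups of the therapy table, kidneys given UC-MSC had the highest mean Stat3. They had 239.5, 315, 335 and 469 CPM, those given BM-MSC 144, 134, 136 and 187 CPM and AKI kidneys 274, 189.8, 234 and 192 CPM. The UC-MSC libraries lay above all BM-MSC libraries and overlapped with AKI, and the BM-MSC libraries lay below all AKI libraries. Stat3 was higher with UC-MSC than in AKI (0.61 ± 0.19, adjusted p = 0.0169), lower with BM-MSC than in AKI (-0.56 ± 0.19, adjusted p = 0.0303) and higher with UC-MSC than with BM-MSC (1.17 ± 0.19, adjusted p = 0.00133). The last of these was called with any single library left out. Both differences from AKI sat near the threshold: the call for UC-MSC was lost without AKI replicate 2 or 4 or UC-MSC replicate 4 (adjusted p = 0.0523 to 0.0532), and the call for BM-MSC without AKI replicate 3 or BM-MSC replicate 1, 2 or 3 (adjusted p = 0.0687 to 0.0886). Without AKI replicate 1 the BM-MSC value was -0.45 (adjusted p = 0.0499).

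**Figure D3:**
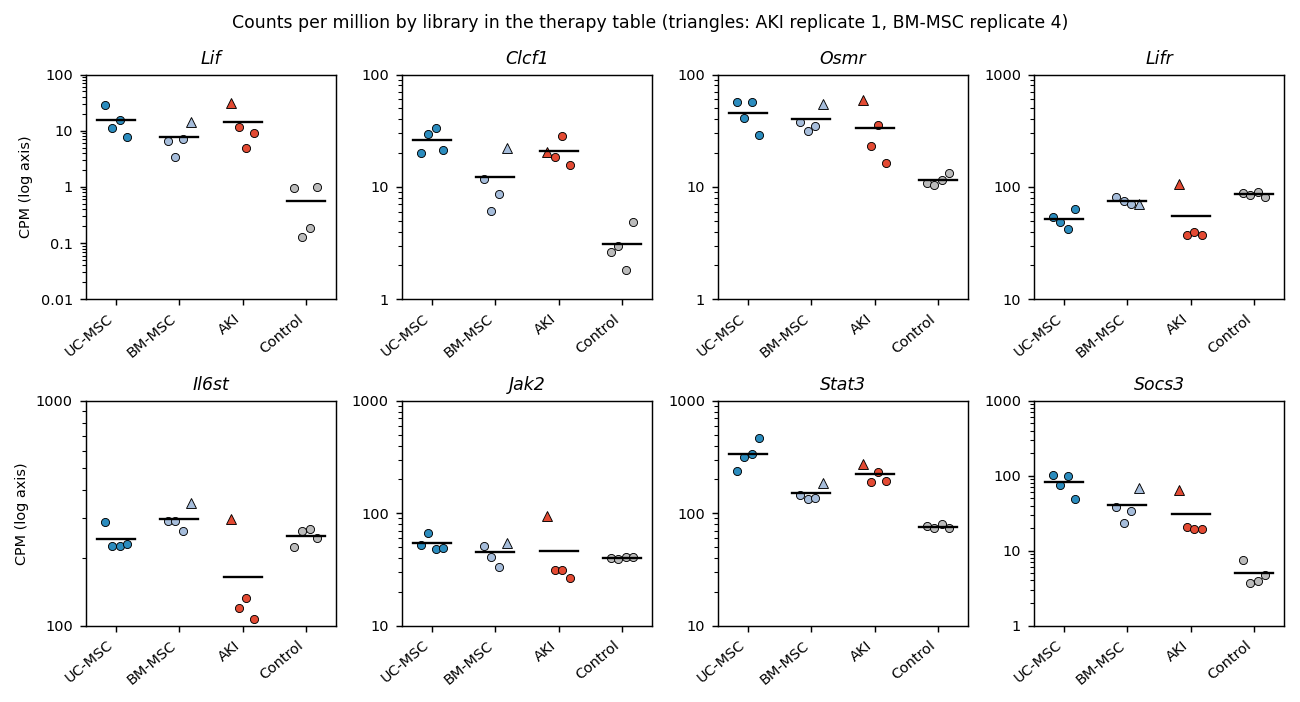
CPM (log axis) of the 8 members by library in UC-MSC, BM-MSC, AKI and Control kidneys. Points are libraries, bars are means of 4, and triangles are AKI replicate 1 and BM-MSC replicate 4. Stat3 is highest with UC-MSC, and the AKI triangle stands off from its group for Lifr, Il6st, Socs3 and Jak2.

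Against AKI, UC-MSC kidneys had 2 members higher and 0 lower, where 20.3% of all genes were higher and 20.2% lower. Besides Stat3 this was Socs3, with 103, 75.7, 100.1 and 49.1 CPM in UC-MSC kidneys, against 64.6, 20.9, 19.7 and 19.5 CPM in AKI kidneys. UC-MSC and AKI overlapped only through AKI replicate 1, and the log2 fold change was 1.40 ± 0.41 (adjusted p = 0.0130), or 2.02 (adjusted p = 1.27e-04) without that library. Against AKI, BM-MSC kidneys had 1 member higher (Il6st) and 1 lower (Stat3), where 16.3% of all genes were higher and 17.1% lower. Il6st had 291, 291, 263 and 352 CPM in BM-MSC kidneys, against 298, 120.3, 133 and 107 CPM in AKI kidneys (0.86 ± 0.25, adjusted p = 0.0161). Only AKI replicate 1 reached the BM-MSC range. The call was lost when AKI replicate 2, 3 or 4 was left out (adjusted p = 0.051 to 0.0535). Without BM-MSC replicate 4, Clcf1 was called lower than in AKI (-1.23, adjusted p = 0.0114).

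Osmr had 57.02, 41.4, 56.4 and 28.7 CPM in UC-MSC kidneys and 37.6, 31.6, 34.9 and 55.2 CPM in BM-MSC kidneys, against 59.8, 23.1, 35.7 and 16.2 CPM in AKI kidneys. All of these overlapped, and neither MSC group differed from AKI by the test (UC-MSC 0.45 ± 0.32, adjusted p = 0.278, and BM-MSC 0.24 ± 0.32, adjusted p = 0.591). Jak2 had 51.7, 66.9, 48.2 and 49.01 CPM in UC-MSC kidneys and 51.4, 40.6, 33.2 and 53.9 CPM in BM-MSC kidneys, and Il6st had 289.8, 226, 226 and 232 CPM in UC-MSC kidneys. Against AKI these were 0.24 ± 0.32 (adjusted p = 0.575) for Jak2 with UC-MSC and 0.56 ± 0.25 (adjusted p = 0.0853) for Il6st with UC-MSC.

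Leaving out AKI replicate 1 changed the count most, though the share of all genes called without it is not given here. Then 6 members were called for UC-MSC against AKI, all higher, among them Il6st at 1.00 (adjusted p = 2.50e-05), Jak2 at 0.86 (adjusted p = 3.51e-04) and Osmr at 0.86 (adjusted p = 0.0133). For BM-MSC against AKI, 6 were called, of which Il6st at 1.32 (adjusted p = 2.97e-06), Lifr at 0.97 (adjusted p = 1.78e-05), Socs3 at 1.03 (adjusted p = 0.0155) and Jak2 at 0.60 (adjusted p = 0.00514) were higher, as was Osmr at 0.67 (adjusted p = 0.0487), and Stat3 was lower. With the IRI 6 h libraries in place of AKI, UC-MSC kidneys were higher in Stat3 (0.80, adjusted p = 0.0124) and Jak2 (0.77, adjusted p = 0.00381), and BM-MSC kidneys in Lifr alone (0.65, adjusted p = 0.0455). Against those libraries Il6st was 0.15 (adjusted p = 0.427) and Stat3 -0.39 (adjusted p = 0.242) with BM-MSC, and Socs3 0.22 (adjusted p = 0.661) with UC-MSC. Of the 4 calls against AKI, 2 for each MSC group, only that of Stat3 with UC-MSC was also made against the other untreated group. That group included IRI 6 h replicate 1, its highest library for Stat3 and Socs3, and the fit was not repeated without this library.

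**Figure D4:**
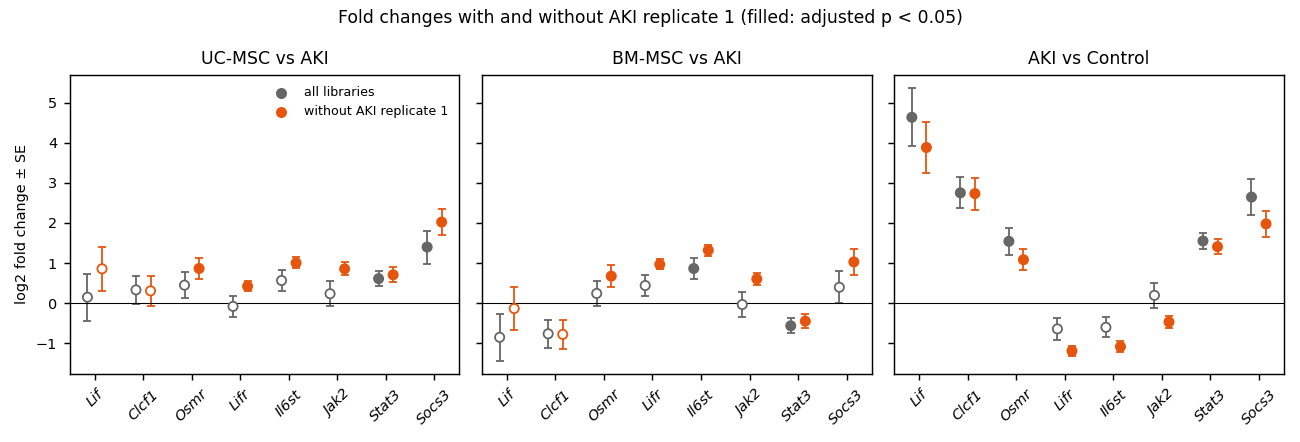
Log2 fold change with SE of each member for UC-MSC against AKI, BM-MSC against AKI and AKI against Control, with all libraries (grey) and without AKI replicate 1 (orange). Filled points have an adjusted p under 0.05. Without that library 6, 6 and 8 members are called in the 3 panels, and 2, 2 and 5 with it. The shares of all genes called without it are not given.

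Against Control, both MSC groups kept the rise of ligands, Osmr, Stat3 and Socs3. In UC-MSC kidneys 5 members rose and 1 fell (20.4% and 16.7% of all genes), and in BM-MSC kidneys 5 rose and 0 fell (6.56% and 2.36%). Lif had 28.3, 11.1, 15.7 and 7.70 CPM in UC-MSC kidneys and 6.69, 3.44, 7.003 and 14.3 CPM in BM-MSC kidneys, against 0.950, 0.130, 0.189 and 0.979 CPM in Control kidneys. Both groups were above Control throughout and overlapped with each other. Lifr was lower in UC-MSC kidneys than in Control (-0.72 ± 0.27, adjusted p = 0.0435), a call that held only without UC-MSC replicate 4 when single libraries were left out, and it was -0.20 ± 0.27 with BM-MSC (adjusted p = 0.691). Between UC-MSC and BM-MSC, 2 members were higher and 0 lower (10.03% and 10.4% of all genes). Besides Stat3 this was Clcf1, with 20.2, 29.5, 33.3 and 21.4 CPM in UC-MSC kidneys, against 11.7, 6.09, 8.58 and 22.4 CPM in BM-MSC kidneys. The ranges met at BM-MSC replicate 4, and the log2 fold change was 1.09 ± 0.36 (adjusted p = 0.0393), or 1.54 (adjusted p = 0.00478) without that library. The call was lost without BM-MSC replicate 1, 2 or 3 or UC-MSC replicate 2 or 3 (adjusted p = 0.0904 to 0.113). Without BM-MSC replicate 4, Socs3 was called higher too (1.33, adjusted p = 0.0371).

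Neutrophil markers moved with these groups too. Their sum was 51.8 to 539.9 CPM in UC-MSC kidneys, 13.3 to 347 CPM in BM-MSC kidneys and 5.44 to 32.3 CPM in AKI kidneys, against 2.72 to 4.70 CPM in Control kidneys. BM-MSC replicate 4 had the 347 CPM, the next highest BM-MSC library 26.2 CPM, and UC-MSC replicate 4 the lowest of its group. That UC-MSC library had the highest Stat3 (469 CPM) and the lowest Socs3 (49.1 CPM) of its group. Proximal tubule markers summed to 1440.1 to 4829 CPM in UC-MSC kidneys, 3452 to 7996 CPM in BM-MSC kidneys and 4229.8 to 7002 CPM in AKI kidneys, against 8209.8 to 10238 CPM in Control kidneys. Markers of S3 summed to 78.0 to 941 CPM in UC-MSC kidneys and 163 to 556 CPM in BM-MSC kidneys. For S3, AKI kidneys had 97.5 to 432 CPM and Control kidneys 1829 to 2130 CPM. Fibroblast and pericyte markers summed to 315 to 969 CPM in UC-MSC kidneys and 597 to 1104 CPM in BM-MSC kidneys, with AKI at 170.4 to 296 CPM and Control at 256 to 293 CPM. Endothelial markers summed to 282 to 388 CPM in UC-MSC kidneys and 201 to 362 CPM in BM-MSC kidneys, and to 195 CPM in AKI replicate 1 but 41.8 to 52.0 CPM in the other AKI libraries, against 227 to 236 CPM in Control kidneys. Thick ascending limb markers separated the 2 MSC groups, at 257 to 1099.6 CPM with UC-MSC and 2202 to 4084 CPM with BM-MSC, where AKI kidneys had 228 to 1982 CPM and Control kidneys 4292 to 4648 CPM. The part of any of these marker lists in the members' levels was not tested.

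Of the 9 other ligands listed, with earlier results of these data known, 4 passed the filter in the temporal table. Il11, interleukin-11, had 20.4, 1.75, 2.48 and 2.57 CPM at 6 h, against 0, 0.211, 0.346 and 0.349 CPM in Control (4.84 ± 1.07, adjusted p = 0.00199). It was called at each of the 4 times, and without replicate 1, the highest library at 6 h, its value there was 3.27 (adjusted p = 0.0267). Ctf1 and Ctf2, which encode cardiotrophins, were not called at any time against Control.

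Osm, which encodes oncostatin M, the ligand of OSMR, was tested only in the therapy table when all groups entered the fit. It had 21.7, 7.85, 11.9 and 1.16 CPM in UC-MSC kidneys, 0.113, 0.362, 0.621 and 2.52 CPM in BM-MSC kidneys and 1.48, 0.834, 0 and 0 CPM in AKI kidneys, against 0.237, 0, 0.126 and 0.131 CPM in Control kidneys. It was higher with UC-MSC than in AKI (4.22 ± 1.09, adjusted p = 0.00609), and with IRI 6 h libraries in place of AKI the difference was 1.01 (adjusted p = 0.449). The order of the UC-MSC libraries was that of their neutrophil marker sums. Between groups it differed: BM-MSC replicate 4, with a neutrophil sum of 347 CPM, had less Osm than UC-MSC replicate 2, with 325 CPM. In the temporal table IRI 6 h replicate 1 had 18.0 CPM and the other 6 h libraries at most 1.49 CPM, and a single 72 h library had 10.1 CPM. That 72 h library, replicate 1, had a neutrophil sum of 27.8 CPM, within the 21.4 to 29.0 CPM of its group. The part of neutrophils in the Osm level was not tested.

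Of 6 other receptor chains, 3 were tested in the temporal table. Il11ra1, the interleukin-11 receptor chain, fell at each time (-0.61 to -0.47, log2, adjusted p = 0.00292 at 6 h). It fell after sham surgery too (-0.36 ± 0.11, adjusted p = 0.0259), and at 24 h less the sham change it was -0.02 ± 0.13 (adjusted p = 0.938). Cntfr, the receptor chain of ciliary neurotrophic factor and CLCF1, fell at 72 h (-2.13 ± 0.90, adjusted p = 0.0481). Il6ra, the interleukin-6 receptor chain, was not called at any time there, and was higher with UC-MSC than in AKI (1.33 ± 0.40, adjusted p = 0.0153, or 0.0571 in the fit of 2 groups). Among 9 other JAK and STAT genes, 1 rose and 0 fell at 6 h, against 10.4% and 8.51% of all genes. This was Jak3, a kinase of lymphoid cytokine receptors. It rose at each time, to 128 ± 59.9 CPM at 72 h, against 15.6 ± 1.39 CPM in Control (SD, n = 4 each). Jak3 was also higher in sham 24 h than in sham control kidneys (0.49 ± 0.14, adjusted p = 0.0170), and at 24 h less the sham change it was 1.95 ± 0.20 (adjusted p = 7.02e-08). Jak1, the main kinase of gp130, fell from 24 h, with 53.9 ± 11.1 CPM at 72 h, against 178 ± 11.9 CPM in Control (-1.72 ± 0.18, adjusted p = 3.01e-08). Of 14 feedback and phosphatase genes, 13 were tested in the temporal table and 2 rose and 0 fell at 6 h (the same 10.4% and 8.51% of all genes), Socs2 (1.12) and Cish (1.06), feedback inhibitors better known from STAT5. Both rose at all 4 times, while Socs1 was not called at any time against Control. After sham surgery neither Socs2 (0.34, adjusted p = 0.335) nor Cish (0.55, adjusted p = 0.167) was called. At 24 h, 3 of the 13 rose and 3 fell (21.8% and 20.2% of all genes). Less the sham change, 1 rose and 4 fell (24.8% and 20.1% of all genes).

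Known STAT3 target genes, 40 in a list assembled with earlier results known, rose widely. At 6 h, 30 of the 39 tested rose and 1 fell, with a median log2 fold change of 1.69, where the median of all genes was -0.07 and 10.4% of all genes rose and 8.51% fell. Without replicate 1 at 6 h the counts were 22 and 2, for which the share of all genes is not given. At 24 h 26 rose and 2 fell (median 1.88, all genes 0.05), at 48 h 20 and 3 (1.50, all genes 0.01) and at 72 h 20 and 4 (0.92, all genes -0.04). Over all genes, 21.8% rose and 20.2% fell at 24 h, 26.9% and 26.8% at 48 h, and 26.7% and 29.6% at 72 h. Among acute-phase genes, Fgb, fibrinogen beta chain, had 164 ± 56.3 CPM at 24 h, against 2.64 ± 1.11 CPM in Control (5.94 ± 0.83, adjusted p = 3.55e-06). At 48 h over 24 h, 0 of 39 target genes rose and 12 fell (9.001% and 12.1% of all genes), led by Fgb (-4.32), Fgg (-3.96), Fga (-3.83) and Hp (-3.60), the genes of the other fibrinogen chains and of haptoglobin. Some targets were still higher than Control at 72 h. Timp1, a metalloproteinase inhibitor, had 109 ± 22.03 CPM at 72 h, against 3.34 ± 1.83 CPM in Control (5.03 ± 0.46), and Myc, a growth regulator, was at 2.55 ± 0.28, whereas Steap4, a metalloreductase, fell to 0 to 1.20 CPM at 72 h, against 7.74 to 11.6 CPM in Control (-4.87 ± 0.89, adjusted p = 6.68e-05).

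**Figure D5:**
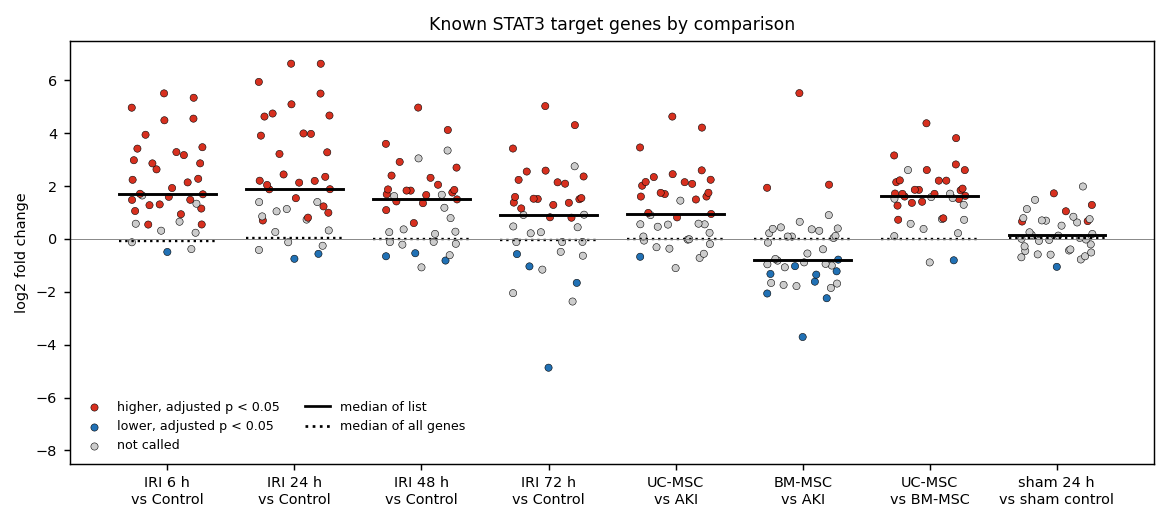
Log2 fold change of each tested STAT3 target gene (points) in 8 comparisons. Red and blue points have an adjusted p under 0.05, solid bars are the list's median and dotted bars the median of all genes. The median is 1.88 at 24 h after reperfusion and -0.78 for BM-MSC against AKI.

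In the therapy table, 20 target genes were higher and 1 lower with UC-MSC than in AKI (median 0.95, all genes -0.02, of which 20.3% were higher and 20.2% lower), whereas 3 were higher and 9 lower with BM-MSC than in AKI (median -0.78, all genes 0.00, of which 16.3% were higher and 17.1% lower). The direct comparison had 25 higher and 1 lower with UC-MSC than with BM-MSC (median 1.63, all genes 0.01, of which 10.03% were higher and 10.4% lower). Saa3, a serum amyloid A of acute-phase response, had 32.9 to 327 CPM in UC-MSC kidneys, against 3.31 to 10.5 CPM in AKI kidneys (4.21 ± 0.68, adjusted p = 2.32e-04). Lbp, the lipopolysaccharide-binding protein gene, was higher in both MSC groups than in AKI (UC-MSC 3.46, BM-MSC 2.05), and Fos, an AP-1 subunit gene, was lower with BM-MSC (-3.71 ± 1.10, adjusted p = 0.0166). The Fos call rested on AKI replicate 1, without which it was -0.38 (adjusted p = 0.603). With IRI 6 h libraries in place of AKI, Lbp was 0.80 (adjusted p = 0.0633) with UC-MSC and -0.61 (adjusted p = 0.212) with BM-MSC, and Saa3 2.18 (adjusted p = 0.0452) with UC-MSC. Without AKI replicate 1 the counts against AKI were 29 higher and 1 lower with UC-MSC, and 10 higher and 11 lower with BM-MSC (median -0.08). Without BM-MSC replicate 4 the direct comparison had 26 higher and 1 lower. With IRI 6 h in place of AKI, 12 were higher and 2 lower with UC-MSC, and 0 higher and 5 lower with BM-MSC. For the target counts without AKI replicate 1 or BM-MSC replicate 4, the share of all genes called is not given. For those with IRI 6 h in place of AKI, only totals over all genes, not split by direction, are given below. After sham surgery 5 of 36 tested target genes rose and 1 fell (7.70% and 13.1% of all genes). Less the sham change, 24 of 38 rose and 2 fell at 24 h after ischaemia (24.8% and 20.1% of all genes).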

How the data were processed

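Raw read counts per gene were deposited by the authors in 3 tables (temporal, therapy and sham), with 40 samples in 10 groups and 44 library columns, since the Control libraries stood in both larger tables. Per the submitters' processing notes, counts were made with HTSeq on mm39 (GRCm39), and DESeq2 was also used. The aligner, the annotation version and the use of strand are not given in the sources used here, so reads of overlapping antisense genes cannot be separated. In the larger tables, a name shared by several gene IDs recurs on many lines. Each name was taken once, and 85 names were left out, 74 of them because their Control counts differed between the tables. Each member had a single gene ID and equal Control counts.

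After TMM scaling and filterByExpr, 1 model per table over all of the groups was fitted with edgeR 4.0.16 under R 4.3.3, and genes were tested two-sided by quasi-likelihood, with Benjamini-Hochberg adjustment over all genes. Ischaemia and sham at 24 h were compared as a difference of differences in a joint fit. A standard error is the absolute log2 fold change divided by the root of F. The procedure was tested on simulated data. Log2 CPM for profile shapes used a prior count of 2. Python 3.11.15, pandas 2.3.3, numpy 2.4.6 and matplotlib 3.10.9 were used for tables and plots. Promoter windows were searched as text.

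Alternatives were DESeq2 1.42.0, its size factors within edgeR, no filter, fits of 2 groups, single libraries left out, the replicate number as a block, abundant names left out, names with disagreeing counts kept, and IRI 6 h libraries in place of AKI. Counts of STAT3 targets without single libraries that stand apart, and alternatives for listed genes that are not members, were added after seeing the data. The members, the gene lists and the marker lists were chosen with earlier results of these data known. From each list, up to 6 called genes with the largest change in each of the 4 times against Control and in both MSC groups against AKI could be named, and up to 4 not called. Osm in the temporal table, Il11ra1 at several times and the named genes in other comparisons were described after their values were seen. Some listed genes are not reported here.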

Additional observations from a re-analysis of the deposited data

Results flagged for a closer look

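In 13 of 80 member and group combinations examined, 1 library lay so far from the other 3 that its gap to the nearest, divided by the range of the group, passed Dixon's 95% critical value for 4 samples, which chance gives in about 1 of 20 groups. IRI 6 h replicate 1 accounted for 4 of these, as the highest library for Lif (0.883), Clcf1 (0.856), Stat3 (0.91) and Socs3 (0.861). AKI replicate 1 accounted for another 4, as the highest for Lifr (0.965), Il6st (0.865), Socs3 (0.968) and Jak2 (0.931). The others were Osmr in IRI 24 h replicate 1 (0.895), Il6st in IRI 48 h replicate 1 (0.832) and UC-MSC replicate 1 (0.903), all highest of their groups, Lif in sham control C2 (0.918), the lowest, and Jak2 in sham control C3 (0.901), the highest.

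For every member the change at 24 h after ischaemia differed, by the interaction test, from the change at 24 h after sham surgery. These differences of log2 fold changes were 4.69 for Clcf1, 4.11 for Socs3, 3.95 for Lif, 1.22 for Stat3, 1.15 for Osmr, -0.96 for Jak2, -1.18 for Il6st and -1.50 for Lifr. Between 24 h and 6 h after reperfusion, tested directly, Clcf1 differed by 2.12 and Il6st by -1.23. Between the UC-MSC and BM-MSC groups, tested directly, Stat3 differed by 1.17 and Clcf1 by 1.09.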

How the results depend on the processing

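Of 1792 member fold changes recomputed under an alternative, 1705 kept direction and side of the threshold, 47 lost the call, 37 gained it and 3 changed sign with a call, all 3 when AKI replicate 1 was left out. With 1 library left out, Jak2 ranged from -0.47 to 0.38 in AKI against Control and from -0.22 to 0.60 in BM-MSC against AKI, and Lifr from -0.23 to 0.42 in UC-MSC against AKI. The number of members called then ranged from 2 to 4 at 24 h over 6 h, 0 to 1 at 48 h over 24 h, 0 to 3 at 72 h over 48 h (3 without IRI 72 h replicate 3), 5 to 8 in AKI against Control, 0 to 6 in BM-MSC against AKI, 1 to 6 in UC-MSC against AKI, 1 to 3 in UC-MSC against BM-MSC and 0 to 1 after sham surgery. At 48 h over 24 h, DESeq2, its size factors within edgeR and the fit of 2 groups each called 2 members, Lifr and Clcf1. In BM-MSC against AKI, 1 was called with no filter, 0 with the fit of 2 groups and 1 with IRI 6 h libraries in place of AKI, and in UC-MSC against AKI 1 with the fit of 2 groups. The cause of these differences was not tested. The shares of all genes called in these fits are not given here, and only some totals follow below. A change in the number of members called is therefore not a result about the members alone.

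Over all genes, the fit of 2 groups called 7443 in place of 3142 at 6 h, 11567 in place of 6986 at 24 h, 8302 in place of 4800 at 24 h over 6 h, 24 in place of 945 at 72 h over 48 h, 4970 in place of 1483 in BM-MSC against Control, 3638 in place of 5552 in BM-MSC against AKI and 3534 in place of 6729 in UC-MSC against AKI. DESeq2 called 1703 at 72 h over 48 h and 2390 in BM-MSC against Control. With single libraries left out, 582 to 766 genes were called in BM-MSC against Control without any 1 Control library or BM-MSC replicate 4, and 1947 to 2257 in place of 3401 in UC-MSC against BM-MSC without BM-MSC replicate 1, 2 or 3 or UC-MSC replicate 3. With IRI 6 h in place of AKI, 423 were called for BM-MSC and 3810 for UC-MSC. At 48 h over 24 h the share of calls that were higher was 42.7%, and 55.1% with DESeq2. For BM-MSC against Control it was 73.5%, and 62.6% with DESeq2. DESeq2's size factors moved the median log2 fold change of all genes against Control to 0.11 in place of 0.01 at 48 h and to 0.09 in place of -0.04 at 72 h.

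Same-numbered libraries did not deviate together (correlations from -0.50 to 0.22, over 0.1 in 5 of 52 pairs), so no pairing by number was seen. Such correlations cannot exclude a weak effect shared by a number. With the replicate block, Lifr (-0.74) and Il6st (-0.69) were called lower in AKI against Control, no member's other call changed, and 499 genes were called at 72 h over 48 h. No paired analysis was possible for the sham comparison or the difference of differences because the sham control columns carry no replicate number that ties them to a sample. Lif in Control rests on 36 counts, and depth at 72 h was the lowest. In the promoters, TTCNNNGAA in place of TTCCNGGAA gave 1 member gene in place of 0.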
